A study of Homo sapiens with 8 samples.

Results

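Enzymes that build serine, asparagine and proline, and that carry one-carbon units in mitochondria, were measured by their transcripts in a prostate cancer cell line given inhibitors of the coactivators p300 and CBP. The 10 genes were PHGDH, PSAT1 and PSPH (serine), ASNS (asparagine), SHMT2, MTHFD2, MTHFD1L and ALDH1L2 (mitochondrial one-carbon units), and ALDH18A1 and PYCR1 (proline). They were chosen by name, as all transcripts of these genes in the deposited table, and made up 10 of 19431 genes and 71 of 74209 transcripts that could be assigned to a gene. The choice was made with earlier results of these data known, so a member count beside the share of all genes is a description only. All libraries came from LNCaP-FGC, an established human line of androgen-dependent prostate carcinoma cells. The 4 groups, of 2 RNA-seq libraries each, were cells given I-CBP112 together with A-485, A-485 alone, I-CBP112 alone, or the solvent DMSO, each for 24 h. I-CBP112 occupies the acetyl-lysine pocket of the p300 and CBP bromodomains, and A-485 blocks the site where these proteins transfer acetyl groups. The sources used here do not give doses. Nothing in the labels says that libraries of a group are separate cultures, so p-values measure only how these samples spread, and that spread may be technical.

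Cells make serine from a glycolytic intermediate in 3 steps, catalysed in order by PHGDH, PSAT1 and PSPH. In mitochondria SHMT2 then splits serine to glycine and passes a carbon to folate, and MTHFD2, MTHFD1L and ALDH1L2 oxidise that carbon or release it as formate for the synthesis of nucleotides. ASNS makes asparagine from aspartate and glutamine, while ALDH18A1 and PYCR1 make proline from glutamate. Textbook regulation of these genes is by ATF4, a transcription factor made when amino acids run short and in the integrated stress response, which acts with C/EBP proteins on a shared DNA element. Proliferating tumour cells, prostate carcinoma lines included, are known to depend on several of these enzymes.

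To show where that element lies, the promoters of ASNS, MTHFD1L and PSAT1 are printed, since ASNS and MTHFD1L were the members with a match among those with an available promoter, and PSAT1 was among the strongest to fall without one. The sequences are RefSeq windows of GRCh38.p14 that run from 250 bases before to 50 bases after an annotated start. The motif searched, on both strands, was TGATGNAA, the core of the C/EBP-ATF element, and a match is in capitals. It overlaps no other motif searched. ASNS is at chr7:97872359-97872658 on the minus strand, MTHFD1L at chr6:150866197-150866496 on the plus strand, and PSAT1 at chr9:78296875-78297174 on the plus strand.
ASNS: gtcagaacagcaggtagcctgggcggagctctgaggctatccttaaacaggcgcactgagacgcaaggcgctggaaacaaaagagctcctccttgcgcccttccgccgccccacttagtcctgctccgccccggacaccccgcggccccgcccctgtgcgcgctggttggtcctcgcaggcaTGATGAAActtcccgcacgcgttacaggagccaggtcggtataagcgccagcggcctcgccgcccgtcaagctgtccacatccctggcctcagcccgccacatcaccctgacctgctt
MTHFD1L: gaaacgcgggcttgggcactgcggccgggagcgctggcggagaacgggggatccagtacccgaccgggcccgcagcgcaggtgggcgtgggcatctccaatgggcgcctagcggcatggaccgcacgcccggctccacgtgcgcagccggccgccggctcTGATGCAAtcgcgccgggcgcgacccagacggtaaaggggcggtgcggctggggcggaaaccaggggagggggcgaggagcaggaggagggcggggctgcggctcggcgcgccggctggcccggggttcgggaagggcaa
PSAT1: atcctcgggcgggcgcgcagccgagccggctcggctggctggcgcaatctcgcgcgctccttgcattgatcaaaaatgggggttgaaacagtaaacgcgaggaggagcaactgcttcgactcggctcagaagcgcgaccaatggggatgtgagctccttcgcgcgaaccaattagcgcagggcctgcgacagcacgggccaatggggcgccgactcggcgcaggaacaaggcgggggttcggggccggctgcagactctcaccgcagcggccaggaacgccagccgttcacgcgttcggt
In ASNS the letters TGATGAAA stood at positions -68 to -61, counted from 1 at the annotated start. In MTHFD1L the letters TGATGCAA stood at -90 to -83 in the printed window, and the same site fell in 2 further windows of that gene. The table held windows for 6 of the 10 members (PHGDH, PSAT1, ASNS, MTHFD2, MTHFD1L and ALDH18A1), 10 windows in all, and 4 of these, of 2 genes, held the motif. PSPH, SHMT2, ALDH1L2 and PYCR1 are named only. Among all 35116 windows 3.62% held it, and among all 27305 genes 4.46% held it in at least 1 window. A match is a description of letters, and no match says only that they are not in that window.

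Levels are given as scaled FPKM, that is, fragments per kilobase of transcript per 1e+06 fragments, summed per gene, with each library brought to the same total and then adjusted by a trimmed mean of ratios. They are relative to the rest of a library, so fewer cells with a transcript and less of it per cell cannot be told apart. The replicate 1 libraries held more fragments on the listed transcripts, an estimated 15.9 to 28.1 M (M for 1e+06), against 4.44 to 13.5 M in replicate 2. The fragments by which values had been normalized were closer, an estimated 17.1 to 31.0 M in replicate 1 and 15.8 to 27.3 M in replicate 2. The listed transcripts took 90.7 to 99.2% of the fragments by which values had been normalized in replicate 1, and 21.5 to 49.4% in replicate 2. The values as deposited were thus on a different scale in each replicate, and PHGDH as deposited was 380 and 191 FPKM with both compounds, 348 and 109 FPKM with A-485, 690 and 144 FPKM with I-CBP112, and 917 and 165 FPKM with DMSO (replicate 1, then replicate 2). As deposited, the log2 fold change of the median gene against DMSO was 0.61 with both compounds, 0.37 with A-485 and 0.051 with I-CBP112. After scaling it was 0.032, 0.021 and -0.00074 in the same order, and changes below are relative to that. Of the 10 genes, 9 had enough signal to be tested, with between 79 and 36741 estimated fragments in a library. All 8 luminal prostate markers were measured. Their sums were 1638 to 2239 scaled FPKM with both compounds, 2015 to 2313 with A-485, 3187 to 3404 with I-CBP112 and 4615 to 5649 with DMSO. The sum thus moved with the members, but its markers did not all move alike. KLK3 was 51.1 and 50.2 with both compounds, 575 and 640 with A-485, and 2271 and 1977 with DMSO. KRT8 was 1439 and 736 with both compounds, against 1225 and 752 with DMSO. FOLH1 was 555 and 538 with I-CBP112, against 467 and 498 with DMSO. The part of these markers in the results was not tested. The basal marker TP63, the leukocyte marker PTPRC and the endothelial marker CDH5 were listed at 0 in every library. The sum of TP63 with the basal keratins KRT5 and KRT14 was 0.184 to 1.90 with both compounds, 0 to 0.299 with A-485, 0.753 to 15.4 with I-CBP112 and 1.07 to 7.18 with DMSO, and KRT5 was highest in replicate 2 of I-CBP112, at 14.0. The macrophage marker CD68 was 5.89 and 3.95 with both compounds, 5.80 and 2.16 with A-485, 2.02 and 2.60 with I-CBP112, and 1.92 and 1.43 with DMSO, and its part in the results was not tested. The sum of 4 stromal markers ran from 23.5 to 24.8 with both compounds, 25.4 to 28.3 with A-485, 18.5 to 22.5 with I-CBP112 and 14.7 to 26.4 with DMSO, and COL1A1 within it was 11.6 and 9.55 with both compounds and 3.48 and 3.47 with DMSO.

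**Figure D1:**
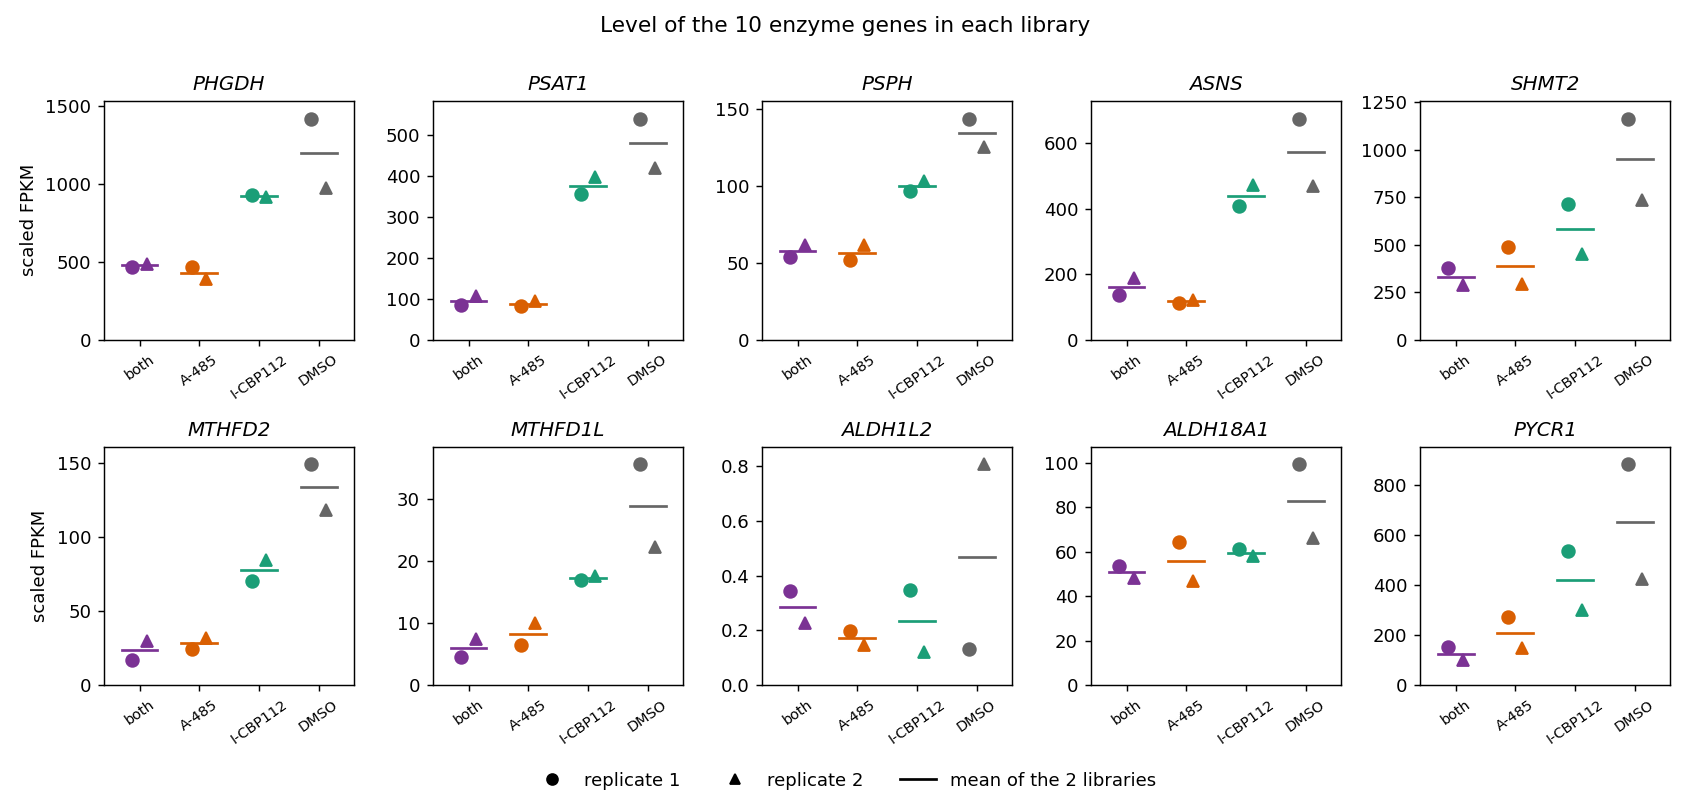
Level of each of the 10 enzyme genes in every library. The vertical axis is scaled FPKM on a linear scale from 0, groups run from both compounds to DMSO, circles are replicate 1, triangles replicate 2 and bars the mean of the 2 libraries. For PSAT1 the 4 libraries given A-485, with or without I-CBP112, sit between 81.9 and 106, and the other 4 between 355 and 540.3. ALDH1L2 stays below 1 in every library.

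The 3 serine synthesis genes fell with A-485, whether alone or together with I-CBP112. PHGDH, the first enzyme of the route, had 467 and 488 scaled FPKM with both compounds, 465 and 387 with A-485, 931 and 913 with I-CBP112, and 1419 and 973 with DMSO. All 4 libraries given A-485 lay below all libraries without it, and the share of all genes with that pattern was not computed. The log2 fold change of PHGDH against DMSO was -1.30 ± 0.24 (SE, n = 2 per group) with both compounds and -1.47 ± 0.24 with A-485 (limma, adjusted p = 0.0140 and 0.0177). PSAT1, which transfers an amino group from glutamate in the second step, had 83.6 and 106 scaled FPKM with both compounds, 81.9 and 93.8 with A-485, 355 and 398 with I-CBP112, and 540.3 and 421 with DMSO. Its log2 fold change was -2.33 ± 0.22 with both compounds and -2.43 ± 0.22 with A-485 (limma, adjusted p = 0.000982 and 0.00484), and PSAT1 passed in each fit that left out 1 of the 8 libraries. PSPH, the phosphatase of the last step, had 54.1 and 61.7 scaled FPKM with both compounds, 51.7 and 61.4 with A-485, 96.9 and 103 with I-CBP112, and 144 and 125 with DMSO. The PSPH change was -1.20 ± 0.19 with both compounds and -1.24 ± 0.19 with A-485 (limma, adjusted p = 0.00778 and 0.0149). A near-identical pseudogene copy of PSPH could share its reads, so its level is uncertain.

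ASNS, the asparagine synthetase, fell too. It had 135 and 187 scaled FPKM with both compounds, 113 and 122 with A-485, 409 and 472 with I-CBP112, and 675 and 469 with DMSO. The groups given A-485 did not overlap with DMSO, while the I-CBP112 and DMSO libraries overlapped. Of all genes tested, 26.9% had both combination libraries below both DMSO libraries, and that share was not computed for A-485 alone. The log2 fold change of ASNS against DMSO was -1.82 ± 0.25 with both compounds and -2.25 ± 0.25 with A-485 (limma, adjusted p = 0.00460 and 0.00595). In replicate 1 alone the change with both compounds was -2.32, and in replicate 2 it was -1.32.

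Of the mitochondrial one-carbon genes, SHMT2, MTHFD2 and MTHFD1L fell with both compounds, and MTHFD2 and MTHFD1L fell with A-485 alone. MTHFD2, the dehydrogenase and cyclohydrolase that is low in most resting adult tissues, had 17.2 and 29.8 scaled FPKM with both compounds, 24.6 and 31.9 with A-485, 70.7 and 84.6 with I-CBP112, and 149 and 118 with DMSO. Its log2 fold change was -2.50 ± 0.28 with both compounds, the largest of the 9 genes in that comparison, and -2.21 ± 0.28 with A-485 (limma, adjusted p = 0.00206 and 0.00843). The order of the genes by size was not tested. Without replicate 1 of the combination MTHFD2 was at -2.12 and PYCR1 at -2.62. MTHFD1L, which releases formate, had 4.54 and 7.52 scaled FPKM with both compounds, 6.54 and 10.1 with A-485, 17.1 and 17.6 with I-CBP112, and 35.7 and 22.3 with DMSO. The MTHFD1L change was -2.09 ± 0.31 with both compounds and -1.68 ± 0.31 with A-485 (limma, adjusted p = 0.00564 and 0.0265). SHMT2, the mitochondrial serine hydroxymethyltransferase, had 376 and 287 scaled FPKM with both compounds, 484.8 and 294 with A-485, 714 and 449 with I-CBP112, and 1162 and 734 with DMSO. In every group its replicate 1 value was the higher one. The SHMT2 change was -1.49 ± 0.36 with both compounds (limma, adjusted p = 0.0359) and -1.29 ± 0.36 with A-485, which did not pass (adjusted p = 0.0770, and 0.00510 with the replicate number as a block). ALDH1L2, which oxidises formyl-folate to carbon dioxide, was below 1 in every library, at 0.343 and 0.227 scaled FPKM with both compounds, 0.196 and 0.146 with A-485, 0.346 and 0.1199 with I-CBP112, and 0.130 and 0.806 with DMSO. These values rest on 3 to 37 estimated fragments a library, so ALDH1L2 was not tested, and a change was not detectable at this depth.

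The proline genes differed in size of change. PYCR1, which carries out the last reduction to proline, had 153 and 98.4 scaled FPKM with both compounds, 273 and 146 with A-485, 537 and 300.1 with I-CBP112, and 882 and 424 with DMSO. Its log2 fold change was -2.31 ± 0.46 with both compounds (limma, adjusted p = 0.0202) and -1.61 ± 0.46 with A-485, which did not pass (adjusted p = 0.0834, and 0.00305 with the replicate block). The replicate 1 value of PYCR1 was the higher in every group, as for SHMT2 and ALDH18A1. With DMSO it was the higher for every tested member. ALDH18A1, which activates glutamate at the head of the route, had 53.7 and 48.1 scaled FPKM with both compounds, 64.3 and 47.0 with A-485, 61.2 and 58.1 with I-CBP112, and 99.4 and 66.1 with DMSO. The ALDH18A1 change was -0.66 ± 0.25 with both compounds and -0.55 ± 0.25 with A-485, and neither passed (limma, adjusted p = 0.126 and 0.206). With the replicate block ALDH18A1 passed with both compounds (adjusted p = 0.0308, where 12% of all genes were called lower), and on the values as deposited it was 0.079, above 0.

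With both compounds, 8 of the 9 tested members were lower than with DMSO, 0 were higher and ALDH18A1 did not pass, where 7.13% of all 11876 genes tested were called lower and 3.17% higher. The median member change was a log2 fold change of -1.82, against 0.032 over all genes tested. All 9 members had both combination libraries below both DMSO libraries, as had 26.9% of all genes tested. The 9 were also lower in each replicate taken alone, by -3.05 to -0.88 in replicate 1 and by -2.10 to -0.45 in replicate 2. The share of all genes lower in both replicates was not computed. PSAT1, ASNS, MTHFD2 and MTHFD1L passed in all 8 fits that left out 1 library. The count was 4 without replicate 1 of the combination and 5 without its replicate 2. PHGDH was lost without either of these (adjusted p = 0.104 and 0.0832), and PSPH without replicate 1 (adjusted p = 0.0798). SHMT2 and PYCR1 were lost without either, and also without DMSO replicate 1 (adjusted p = 0.137 for SHMT2 and 0.0844 for PYCR1), where the count was 6.

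With A-485 alone, 6 of the 9 members were lower than with DMSO and 0 were higher, where 3.01% of all genes tested were called lower and 1.47% higher. PHGDH, PSAT1, PSPH, ASNS, MTHFD2 and MTHFD1L passed, and the median member change was -1.61, against 0.021 over all genes. All 9 members were again lower in both replicates, by -2.71 to -0.62 in replicate 1 and by -2.15 to -0.48 in replicate 2. That share was not computed over all genes here either. The count was 8 with the replicate block, which added SHMT2 and PYCR1, where 8.15% of all genes were called lower. Leaving out replicate 1 of A-485 or of DMSO gave 2, leaving out replicate 2 of A-485 gave 1 (PSAT1), and leaving out replicate 2 of DMSO gave 8. The comparisons of A-485 and of the combination share the DMSO libraries, so their values stand side by side and are not independent.

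With I-CBP112 alone, 0 of the 9 members passed (limma, adjusted p from 0.386 to 0.662), where 0% of all genes tested were called. All 9 fitted changes lay below 0, between -0.77 and -0.34, with a median of -0.44 against -0.00074 over all genes. MTHFD2, at -0.77 ± 0.28, was the 1 member with an unadjusted p under 0.05, and 1307 genes in all had such a p. Limma with the replicate block and voom on estimated fragments called 0 members too. ASNS and PYCR1 overlapped between I-CBP112 and DMSO libraries, and the other 7 members had both I-CBP112 libraries below both DMSO libraries, as had 19% of all genes tested. In replicate 2 the changes ran from -0.71 to 0.0090, and ASNS, at 0.0090, was the member not below 0 there.

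**Figure D2:**
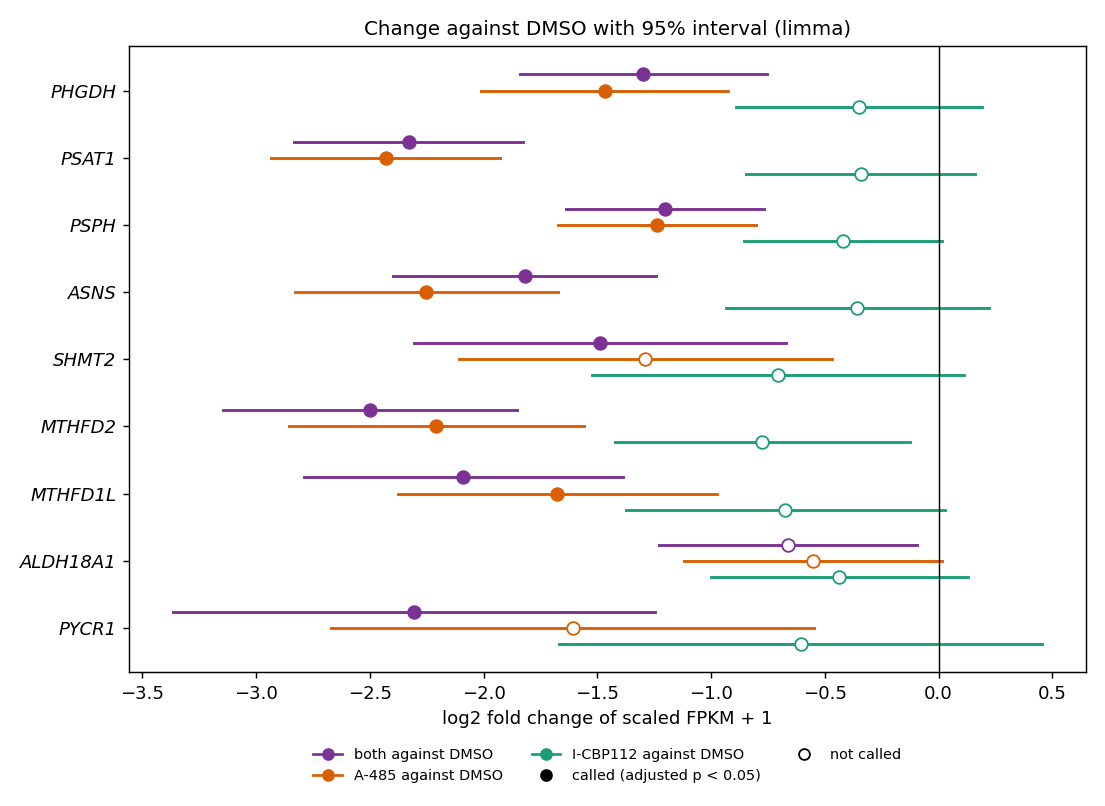
Change of 9 enzyme genes against DMSO, as log2 fold change of scaled FPKM + 1 with its 95% interval (limma), for both compounds, A-485 and I-CBP112. Filled points passed at an adjusted p under 0.05. Both treatments with A-485 lie left of I-CBP112 for every gene, and 8, 6 and 0 genes passed.

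Whether the second compound changed these genes beyond A-485 alone was tested directly. Between both compounds and A-485, 0 of the 9 members passed (limma, adjusted p from 0.542 to 0.961), 0 had an unadjusted p under 0.05, and voom and the replicate block also called 0, where 0.741% of all genes were called lower and 0.0926% higher. The interval of the difference for PSAT1 was -0.40 to 0.60 around 0.10, and for PSPH -0.40 to 0.47 around 0.036. ASNS was at 0.43 (-0.15 to 1.01), and PYCR1 was at -0.70 (-1.76 to 0.36), so a difference in either direction of that size is not shown to be absent. The interaction, or the change with both compounds less what the 2 single changes add up to, passed for 0 of 9 members (limma, 0 with an unadjusted p under 0.05, 0 with the block and 0 by voom), where 0% of all genes were called. Its values ran from -0.091 for PYCR1 to 0.79 for ASNS, with a median of 0.45 against 0.012 over all genes.

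Between both compounds and I-CBP112, 3 members were lower, where 1.95% of all genes were called lower. These were PSAT1 at -1.99 ± 0.22, MTHFD2 at -1.73 ± 0.28 and ASNS at -1.46 ± 0.25 (limma, adjusted p = 0.00411, 0.0227 and 0.0291). With the replicate block 8 passed, all but ALDH18A1, where 4.17% of all genes were called lower. The count was 0 without replicate 1 of the combination, 1 without either I-CBP112 library and 5 without DMSO replicate 2. Between A-485 and I-CBP112, 2 members were lower, PSAT1 at -2.09 ± 0.22 and ASNS at -1.89 ± 0.25 (limma, adjusted p = 0.00980 and 0.0184), where 0.674% of all genes were called lower. With the replicate block 6 passed, where 1.93% were. Without either A-485 library or either I-CBP112 library 0 passed, and PSAT1 then had an adjusted p of 0.0602 to 0.0836.

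**Figure D3:**
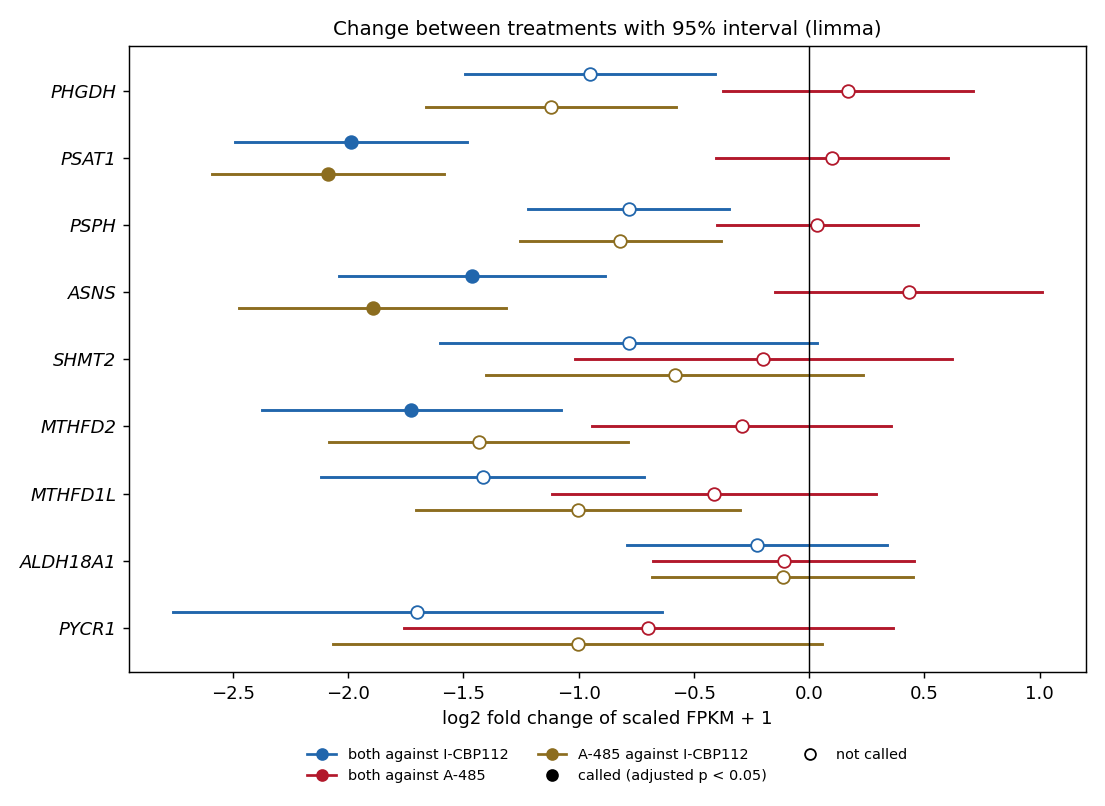
Change of 9 enzyme genes between treatments, as log2 fold change of scaled FPKM + 1 with its 95% interval (limma). Filled points passed at an adjusted p under 0.05. The intervals of both compounds against A-485 all include 0, while PSAT1 and ASNS passed in both comparisons with I-CBP112.

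By mean level, per length, PHGDH was the highest member in each group and SHMT2 the next. PHGDH had a mean of 477 ± 14.8 scaled FPKM with both compounds, 426 ± 54.7 with A-485, 922 ± 12.4 with I-CBP112 and 1196 ± 316 with DMSO (SD, n = 2). The libraries of PHGDH and SHMT2 overlapped with A-485, where SHMT2 was above PHGDH in replicate 1, and with DMSO. They did not overlap with both compounds or with I-CBP112, though SHMT2 overlapped ASNS with I-CBP112. With DMSO the order was PHGDH, SHMT2, PYCR1, ASNS and PSAT1, and the libraries of each overlapped those of the next. PSPH and MTHFD2 followed and overlapped each other, then ALDH18A1, MTHFD1L and ALDH1L2 apart from one another. MTHFD2 averaged 23.5 with both compounds and 28.3 with A-485, below ALDH18A1 at 50.9 and 55.6, whereas with I-CBP112 and DMSO it averaged 77.7 and 134, above ALDH18A1 at 59.6 and 82.7.

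In several pathways a member has a related enzyme in the cytosol or a paralog. SHMT1, the cytosolic counterpart of SHMT2, was at -0.12 ± 0.22 with both compounds and -0.23 ± 0.22 with A-485 (limma, adjusted p = 0.771 and 0.551). MTHFD1, the cytosolic enzyme that joins the activities found in MTHFD2 and MTHFD1L, fell with both compounds, at -0.85 ± 0.19 (limma, adjusted p = 0.0274), and was at -0.58 with A-485 (adjusted p = 0.107). MTHFD2L, a paralog of MTHFD2, was at -0.075 with both compounds and -0.21 with A-485, and PYCR3, a paralog of PYCR1, at -0.65 and -0.66 in the same order, and neither passed (limma, adjusted p from 0.298 to 0.903). ALDH1L1, the cytosolic counterpart of ALDH1L2, was too low to test. Ratios of levels were chosen after the values were seen, so 3 of them are given as a description of the 4 libraries given A-485 and the 4 without it, with no test. The SHMT2 to SHMT1 ratio was 5.45 to 7.90 with A-485 and 8.83 to 16.9 without. The MTHFD2 to MTHFD1 ratio was 0.405 to 0.703 with A-485 and 1.07 to 1.73 without, and that of MTHFD1L to MTHFD1 was 0.107 to 0.187 with A-485 and 0.258 to 0.406 without. 1 further ratio was computed and is not reported here, so these 3 do not stand for all such pairs. A ratio shows unequal change of its 2 genes, not that 1 of them stayed the same.

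Other genes of the same pathways were counted from lists of 54 genes, of which 46 were tested. With both compounds 10 of the 46 were lower and 0 higher, where 7.13% of all genes tested were called lower and 3.17% higher. With A-485 5 were lower and 1 higher, where 3.01% and 1.47% of all genes were. The replicate block gave 12 lower in either comparison, where 12% of all genes were called lower with both compounds and 8.15% with A-485. The median change of the 46 was -0.25 with both compounds and -0.27 with A-485, against 0.032 and 0.021 over all genes tested. The list of one-carbon and folate genes held 20 tested genes with a median of -0.21 with both compounds. Its 4 lower genes were TYMS (thymidylate synthase) at -1.29, the folate carrier SLC19A1 at -1.10, MTHFD1 at -0.85, and GCSH of the glycine cleavage system at -0.83 (limma, adjusted p from 0.0229 to 0.0480). AMT, another part of the glycine cleavage system, was the gene that rose with A-485, at 1.16 ± 0.23, with low levels of 2.05 and 2.77 scaled FPKM with A-485 against 0.346 and 0.719 with DMSO (limma, adjusted p = 0.0333). CTH and GNMT were the lower ones among serine and glycine genes with both compounds, and CTH, which makes cysteine, was at -1.29 with both compounds and -1.80 with A-485. GLUD1 and GLUD2, the glutamate dehydrogenases, fell in both treatments, at -1.76 and -1.28 with both compounds, but they are near copies whose reads cannot be kept apart with certainty. The aminotransferase genes GPT2 and GOT1 fell as well, at -1.79 and -0.91 with both compounds and -1.56 and -1.27 with A-485. With both compounds 3 passed without replicate 1 or 2 of the combination, 6 without replicate 1 of DMSO or of I-CBP112, and 6 with libraries scaled by their total only. With A-485, 2 genes passed without its replicate 1, 0 without its replicate 2, 2 without DMSO replicate 1 and 11 without DMSO replicate 2.

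Genes for known regulators of these enzymes were read alongside. Of 11 listed, 7 were lower with both compounds, where 7.13% of all genes tested were, and 6 with A-485, where 3.01% were. CEBPG passed with A-485 in the fit with the replicate block (adjusted p = 0.0230), which made 7, where 8.15% of all genes were. ATF4 had 295 and 384 scaled FPKM with both compounds, 311 and 401 with A-485, 679 and 795 with I-CBP112, and 1079.6 and 859 with DMSO. Its log2 fold change was -1.51 ± 0.24 with both compounds and -1.44 ± 0.24 with A-485 (limma, adjusted p = 0.00830 and 0.0204). MYC was at -3.64 ± 0.21 and -1.92 ± 0.21, and TRIB3, an inhibitor of ATF4, at -2.84 and -2.44. CEBPB, DDIT3 and NUPR1 fell in both treatments, and CEBPG fell with both compounds. ATF5, EIF2AK3, EIF2AK4 and NFE2L2 did not pass in either. Messenger RNA of ATF4 is no measure of its protein, which is set largely by translation.

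**Figure D4:**
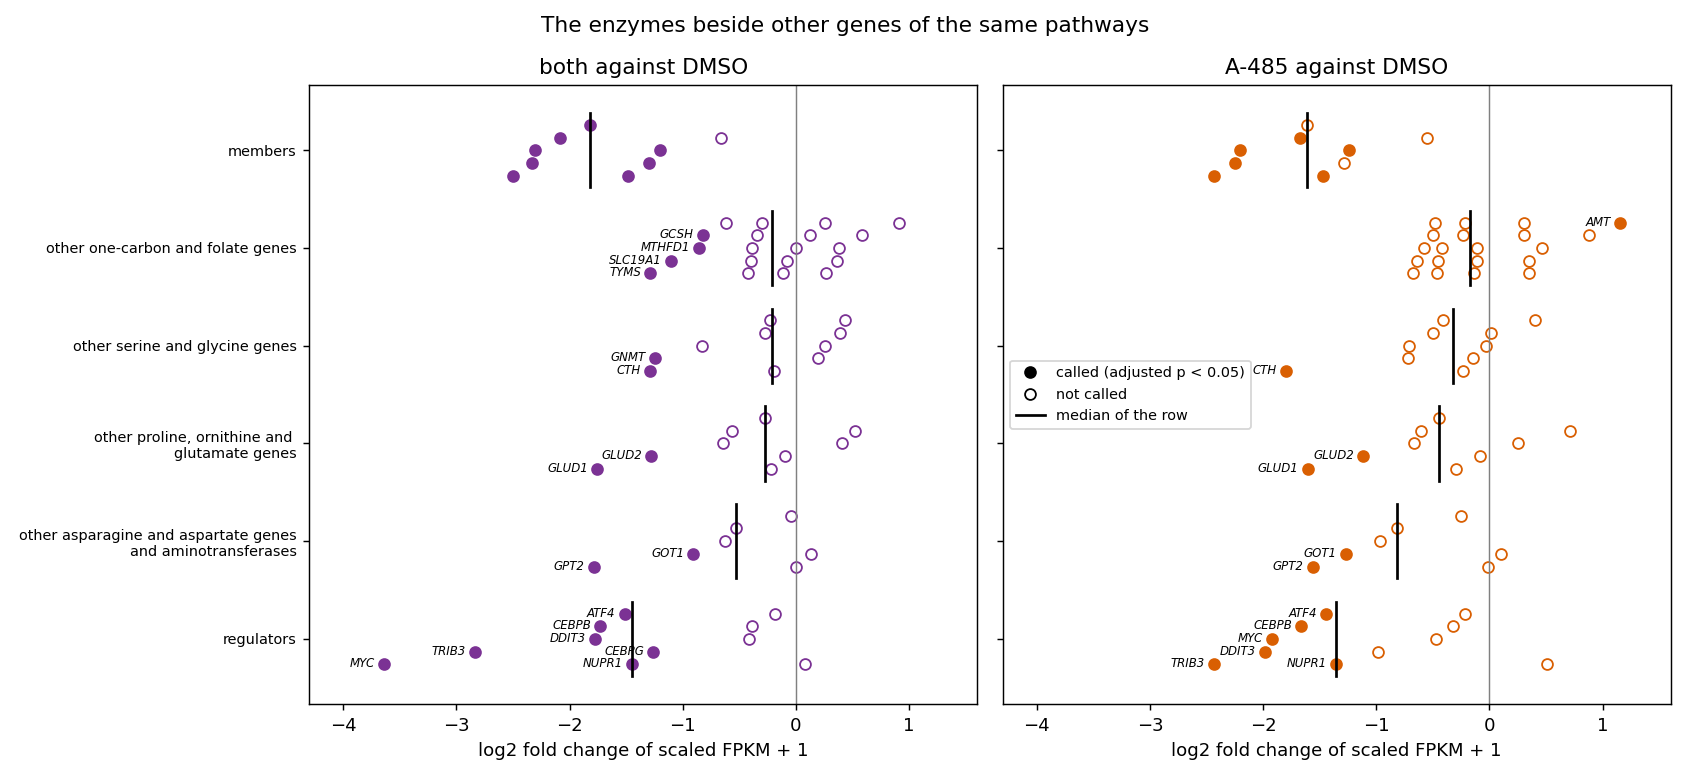
Log2 fold change of scaled FPKM + 1 against DMSO with both compounds (left) and A-485 (right), for the tested enzyme genes and 5 lists of related genes. Filled points passed at an adjusted p under 0.05, hollow points did not, names are given for those that passed outside the members, and bars are row medians. The members' medians are -1.82 and -1.61, and those of the 4 lists of other pathway genes lie closer to 0.

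The members varied together over the 8 libraries, and the other genes with the most similar pattern are described by Pearson's r to the members' mean log2 level. The 8 closest non-members were PCK2, SLC3A2, YARS, PDIA5, AARS, EIF4EBP1, SESN2 and YRDC, with r from 0.996 to 0.991 over 8 libraries that share their treatment groups and depth. Of the 11876 genes tested, 165 non-members had r above 0.95. PCK2, the mitochondrial phosphoenolpyruvate carboxykinase, averaged 111.8 scaled FPKM with both compounds, 122 with A-485, 377 with I-CBP112 and 595 with DMSO. Among the members r was lowest for ALDH18A1, at 0.805, and SHMT2, at 0.900, and highest for PHGDH, at 0.985. Each member is itself part of that mean, which raises its r, so members' values are not comparable with those of non-members.

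At the level of single transcripts the members differed in how many forms carried their signal. PHGDH-202 held 99.8 to 100% of PHGDH in every library, PSAT1-202 92.4 to 100% of PSAT1, and PYCR1-201 57.0 to 82.3% of PYCR1. ASNS was split between ASNS-214, with 31.2 to 40.6%, and ASNS-202, with 27.8 to 36.3%. SHMT2 was led by SHMT2-232, with 26.1 to 38.04%, MTHFD2 by MTHFD2-202, with 28.9 to 61.5%, and MTHFD1L by MTHFD1L-203, with 39.9 to 69.8%. Such shares are estimates that divide fragments between overlapping forms. Of 71 member transcripts, 54 were tested, and 50 had a fitted change below 0 with both compounds, 44 with A-485 and 40 with I-CBP112. The share of all transcripts below 0 was not computed. Forms of 1 gene also share fragments, so these counts are a description only. With both compounds 3 were called lower, PSAT1-202 at -2.38 ± 0.23, MTHFD1L-203 at -2.23 ± 0.25 and SHMT2-211 (limma over 31855 transcripts, adjusted p = 0.0308, 0.0397 and 0.00950), where 0.308% of all transcripts were. PSAT1-202 and MTHFD1L-203 were lost in every fit that left out a library, and SHMT2-211 in all but those without an I-CBP112 library. Without the replicate 1 or 2 library of I-CBP112, 1 passed, and without any 1 of the other 6 libraries 0 passed. With the replicate block 4 passed (0.37% of all transcripts), PYCR1-201 and PYCR1-202 in place of MTHFD1L-203. With A-485 limma called 0 member transcripts (lowest adjusted p = 0.0886), 0 with the block, where 0% of all transcripts were called lower. With I-CBP112 SHMT2-211 was the 1 called (adjusted p = 0.0206, and 0.0750 with the block, which called 0.00628% of all transcripts lower), where 0.0188% of all transcripts were called lower. SHMT2-211, a short form of 579 bases singled out after its values were seen, was listed at 0.01 scaled FPKM or less in all 6 treated libraries and at 35.8 and 40.2 with DMSO, from about 285 and 82 estimated fragments. It was 3.08 and 5.48% of SHMT2 there, so the change of the gene does not rest on it. SHMT2-211 met the filter on low values through the DMSO libraries alone, so it could only be called lower. Its calls with both compounds and with I-CBP112 are therefore a description and no support.

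**Figure D5:**
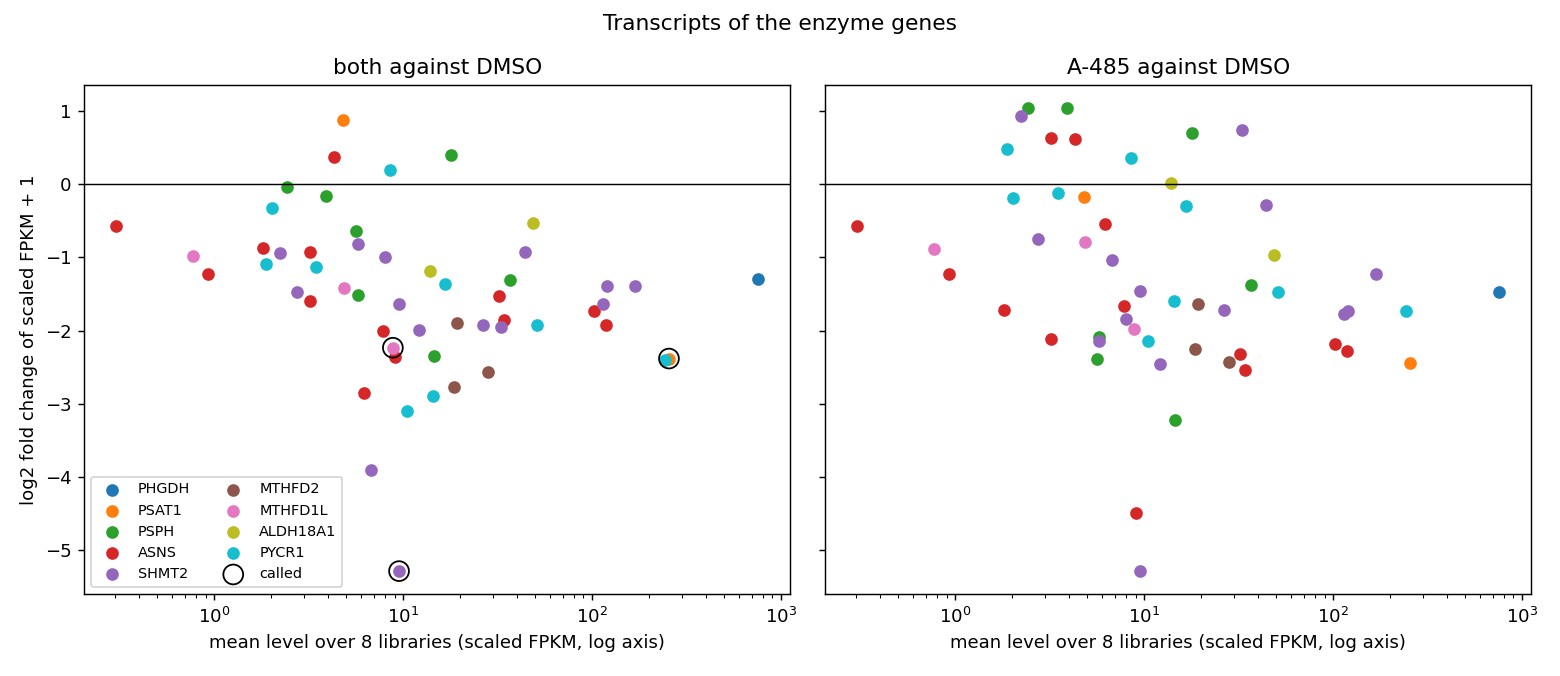
Each point is 1 tested transcript of the enzyme genes. The horizontal axis is the mean level over 8 libraries in scaled FPKM on a log axis, the vertical axis is the log2 fold change of scaled FPKM + 1 against DMSO with both compounds (left) or A-485 (right), colours are genes and rings mark the 3 transcripts called. Most points lie below 0, 50 of 54 on the left and 44 of 54 on the right, and the lowest is SHMT2-211. That share was not computed over all transcripts.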

How the data were processed

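Per the labels' protocols, Trizol RNA was DNase-digested and made into libraries with NEB reagents. The authors deposited 1 table of 81591 transcripts, whose values are FPKM, since 78.3% were not whole and low values came in steps that shrank as transcripts grew longer. For the authors' steps before deposit, the submitters' processing notes list the builds hg19 and GRCh37 and the tools Cufflinks, STAR, DESeq2 and DESeq, with neither versions nor roles. Fragments were estimated from that step in transcripts of at least 3000 bases, and 80.9 to 86.6% of the low values used were whole multiples within 0.1. Fragment numbers show counting error only, whereas limma's 95% intervals come from the spread between libraries.

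Transcripts were named by Ensembl identifier in GENCODE release 29, which follows GRCh38, so it served for names, types and lengths only. Of all transcripts 74209 (91.0%) matched, with 95.7 to 96.6% of a library's FPKM. FPKM were summed per gene, scaled to a total of 1e+06 and by a trimmed mean of ratios (30% of ratios, 5% of levels), and kept where at least 1 in at least 2 libraries. The 11876 genes, and in a separate fit 31855 transcripts, entered limma 3.58.1 (R 4.3.3) as log2(value + 1), with 1 trended, robust spread for all groups (residual degrees of freedom: 4) and p-values adjusted over all of them by Benjamini-Hochberg at 0.05. The pseudocount understates changes of low genes. The script was tested on simulated data with independent noise and no shared replicate deviation, unlike these data, so its error rate here is unknown.

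Replicate numbers 1 and 2 go with a prefix shared by the labels of all 4 groups, whose meaning the labels do not give. Deviations of same-numbered libraries from their group means correlated by 0.145 to 0.425 in all 6 pairs of groups, so the number was also fitted as a block. Alternatives were the pseudocount, the filter, 3 other scalings, genes summed from protein-coding transcripts only, voom on estimated fragments, the block, and each library left out. The block on the values as deposited was added after seeing the data.

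The members and lists were chosen with earlier results of these data known. Named genes are all members, SHMT1, MTHFD1, MTHFD2L, ALDH1L1, PYCR3, ATF4, MYC, any other listed gene that passed against DMSO, the 8 closest in pattern, and the leading transcripts. Some listed genes are not reported here and were left out of the lists.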

Additional observations from a re-analysis of the deposited data

How the results depend on the processing

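Over the settings tried, 1071 values of single members were recomputed, of which 939 kept their direction and side of the threshold, 77 lost the threshold, 25 gained it and 30 changed direction. On the values as deposited 0 members passed in any comparison (both compounds or A-485 against DMSO, or either against I-CBP112), and 0 transcripts with both compounds. On those values with the replicate block, 4 members passed with both compounds against DMSO (PSAT1, MTHFD2, MTHFD1L and PYCR1) and 4 with A-485, 0 passed in either comparison with I-CBP112, and 1 transcript passed with both compounds. The cause was not tested. With the replicate block, both compounds against I-CBP112 gave 8 members, A-485 against I-CBP112 6, and I-CBP112 against DMSO 0 transcripts. Voom gave 6 and 5 members in the 2 comparisons with I-CBP112, and no filter on low values gave 1 in each, over more genes. A pseudocount of 0.1 gave 0 transcripts with I-CBP112, and no filter gave 1 with A-485.

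Leaving out 1 library at a time gave 4 to 8 members with both compounds against DMSO, 1 to 8 with A-485, 0 to 5 for both compounds against I-CBP112 and 0 to 2 for A-485 against I-CBP112. It gave 0 to 1 transcripts with both compounds and 0 with A-485 or I-CBP112. A group left with 1 library is assumed to vary like the others.

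Values that changed direction were uncalled. As deposited, with and without the block, ALDH18A1 was at 0.079 for both compounds against DMSO, 0.46 against I-CBP112 and 0.17 against A-485, and at 0.29 for A-485 against I-CBP112, SHMT2 was at 0.094 for both compounds against A-485, and PYCR1 was at 0.15 in the interaction. Scaled by total only, PSPH was at -0.036 for both compounds against A-485 and ALDH18A1 at 0.055 for A-485 against I-CBP112, and by voom PSPH was at -0.023 for both compounds against A-485. With libraries left out, both compounds against A-485 ran from -0.055 to 0.27 for PSAT1, -0.086 to 0.16 for PSPH, -0.56 to 0.16 for SHMT2, -0.66 to 0.088 for MTHFD2 and -0.33 to 0.11 for ALDH18A1. The interaction ran from -0.058 to 0.59 for MTHFD1L and from -0.60 to 0.44 for PYCR1, and A-485 against I-CBP112 from -0.34 to 0.11 for ALDH18A1. The block changed no call of a member gene other than those given here or beside the results. Limits: 2 libraries a group, replicate 2 with fewer fragments on the listed transcripts and on another deposited scale, and isoform shares that are model estimates.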
